A study of Aspergillus fumigatus with 12 samples.

Results

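The comparison described here sets mycelium grown with the dye Ponceau 2R and sinapic acid (P2R+SA) against mycelium grown with the dye alone (P2R). It covers 3 libraries of each group and the 8999 of 10276 genes (87.6%) that reached an FPKM of at least 1 in 3 or more of these 6 libraries. FPKM is a transcript level scaled to gene length and library size. Of the 1277 genes left out, 132 were at 0 in all 6 libraries. The study also grew the same strain, X-13, on basic medium (CK) and on basic medium with sinapic acid (SA), again with 3 libraries each, and these 6 libraries are used here to set the spread between replicates and as a reference. All groups are mycelium of 1 strain on the same basic medium. Neither the doses nor the time of addition is given in the sources used here. No label says that the 3 libraries of a group are separate cultures, and p-values therefore reflect only the variation among these libraries, part of which may be technical.

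Ponceau 2R belongs to the azo dyes and is red. Sinapic acid is a phenolic acid of plants, built on the same ring as one of the units of lignin. White-rot fungi such as Trametes hirsuta, the species named in the series title, break down lignin with secreted laccases and peroxidases, and the same enzymes oxidize many dyes. Small phenolic compounds can serve laccases as mediators, which carry electrons between the enzyme and a dye. The question of the comparison is what sinapic acid changes in a fungus that already faces the dye. The sample labels name another fungus, Aspergillus fumigatus, and it was not settled which of the species the IDs come from. The deposited tables pair no ID with a name or product, and 0 of the 10276 IDs matched the 10086 genes of an Aspergillus fumigatus table, so genes are described by their levels, coding lengths and IDs, and neither laccases nor any other enzyme can be picked out.

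Library totals over the 10276 genes ran from 35919373 to 39408704 fragments, so depth differed little between groups. A pair of records disagrees on time. By the series text every group was taken at 48 h. In the headers of the per-library files, however, CK and P2R carry the number 36, and libraries with sinapic acid carry 48. Headers of P2R+SA contain a further 4 that nothing explains. If 36 and 48 are hours, sinapic acid and a later harvest cannot be told apart in P2R+SA vs P2R or in SA vs CK. Libraries 1 and 3 of P2R had a Spearman correlation of 0.9951, and P2R replicate 2 correlated with them at 0.9902 and 0.99. In P2R+SA the pair of replicates 2 and 3 had 0.9944, and replicate 1 was farther off at 0.976 and 0.9737. The median gene had an SD of log2(FPKM + 1) of 0.13 between P2R libraries and 0.21 between P2R+SA libraries, against 0.09 between P2R+SA replicates 2 and 3 alone. In the reference groups this median was 0.1 in CK and 0.22 in SA.

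Sinapic acid in dye cultures went with changes in 1833 of 8999 genes (20.4%), of which 790 (8.78%) were higher and 1043 (11.6%) lower than with the dye alone (limma on log2(FPKM + 1), Benjamini-Hochberg adjusted p under 0.05). Changes of at least 1 log2 unit were rises in 193 genes (2.14%) and falls in 376 (4.18%), and changes of at least 2 units were rises in 19 and falls in 64. The typical fall was the larger one: the median size was 0.80 log2 units among falls, with quartiles of 0.55 and 1.23, and 0.68 among rises, with quartiles of 0.52 and 0.99. Genes that fell had a median of 41.2 FPKM with the dye alone and 20.1 FPKM with sinapic acid added. For genes that rose the medians were 19.7 and 33.6 FPKM. Falls thus lay above rises in P2R and below them in P2R+SA. Calling genes by direction favors this order, so the medians are no test of whether genes that fell started higher. In 783 of the rises and 1009 of the falls the 3 libraries of one group lay entirely outside the range of the other, which over all tested genes held for 18.3% upward and 20.8% downward. The 2 groups overlapped in the remaining 41 changed genes.

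How many genes passed depended on single libraries. The count was 1097 without P2R replicate 1 (463 higher, 634 lower), 1188 without P2R+SA replicate 3 (643 lower), and 2438 without P2R+SA replicate 1 (1645 lower). Without P2R replicate 2 there were 480 rises, and without P2R replicate 3 there were 695 falls. Libraries outside the comparison, which share in setting the spread, moved the count too. It was 1519 to 1558 without 1 of the CK libraries and 1940 to 2159 without 1 of the SA libraries. Large changes were steadier: with any 1 library left out, 166 to 206 genes rose and 291 to 457 fell by at least 1 log2 unit. The excess of falls over rises among all changed genes depended on scaling, since rises made up 43.1% of changed genes as deposited, 47.6% with median-of-ratios scaling and 54.0% with quantile normalization. Falls still outnumbered rises under both scalings where the change reached 1 log2 unit, with 356 against 205 and 330 against 212.

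**Figure D1:**
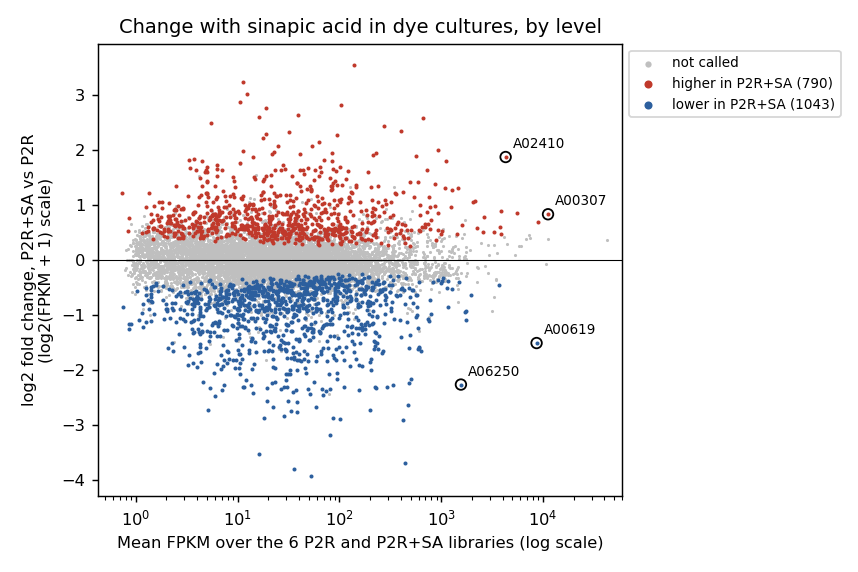
Each point is 1 of 8999 tested genes, with its mean FPKM over the 6 P2R and P2R+SA libraries (log axis) against its log2 fold change in P2R+SA vs P2R; called genes are colored and the 4 IDs described in the text are circled. Large falls reach down to -3.92 and are more numerous than large rises, which reach 3.55, and changed genes occur at every level.

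Changed genes were found at every level of expression, from 16.1% of tested genes under 10 FPKM to 25.2% at 1000 FPKM or more. Among 139 genes with a mean of 1000 FPKM or more over the 6 libraries, 21 rose (15.1%) and 14 fell (10.1%). Among 1461 genes from 100 to under 1000 FPKM, 152 rose (10.4%) and 215 fell (14.7%), and among 4526 genes from 10 to under 100 FPKM, 388 rose (8.57%) and 580 fell (12.8%). Below 10 FPKM there were 229 rises and 234 falls among 2873 genes. Which direction prevailed within a class was not stable. The class of 1000 FPKM or more had 28 rises and 16 falls with median-of-ratios scaling, 20 and 21 with quantile normalization, and 17 and 26 without P2R+SA replicate 1. From 10 to under 100 FPKM the counts were 472 and 592, 574 and 474, and 395 and 912. Shares by coding length ran closer together. With the tested genes divided into 4 classes of about equal size by coding length, the class of the longest, 2052 to 15048 bp, had 154 rises among 2241 genes (6.87%), against 8.52% to 10% in the other classes. The share of falls ran from 11.1% to 12.3% across the 4 classes. Changes of at least 1 log2 unit were less even. From the shortest to the longest class there were 125, 91, 100 and 60 such falls, and 53, 61, 57 and 22 such rises.

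The genes that rose by at least 1 log2 unit moved from a median of 16.7, 18.1 and 19.8 FPKM in the P2R libraries to 51.8, 51.8 and 57.6 FPKM in the P2R+SA libraries. All 193 had groups that do not overlap, against 18.3% of all tested genes in this direction. With the dye alone, 72 of the 193 had a mean under 10 FPKM, as did 283 of all 790 rises. Over the 6 libraries, 2873 of 8999 tested genes had a mean under 10 FPKM. The 19 genes that rose by at least 2 units lay at medians of 8.36 to 11.9 FPKM in P2R and 50.3 to 55.3 FPKM in P2R+SA, with means in P2R+SA between 10.1 and 1130 FPKM. The strongest rises thus ended at modest to abundant levels, and 10 of these 19 genes began under 10 FPKM. These medians and the lack of overlap describe genes picked for the same difference and are no test of it.

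Genes that fell by at least 1 unit had medians of 45.8, 48.1 and 44.6 FPKM in the P2R libraries and 16.6, 13.9 and 12 FPKM in the P2R+SA libraries. In 371 of these 376 genes the groups did not overlap, against 20.8% of all tested genes in this direction, a separation that the choice of genes favors. The 64 genes that fell by at least 2 units started well expressed, with medians of 57.5 to 72.0 FPKM in P2R and only 3 of them under 10 FPKM, and ended at medians of 14.9, 9.75 and 9.26 FPKM in P2R+SA. The highest value was that of P2R+SA replicate 1. The strongest falls, 5 genes of at least 3 units, had means of 31.0 to 808 FPKM with the dye alone and 1.76 to 65.3 FPKM with sinapic acid added. These genes too were picked for the difference. On the log2(FPKM + 1) scale a gene of very low level cannot fall this far, although it can rise, so the starting levels are no test.

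Few genes crossed the level of 1 FPKM between groups. In 32 genes all P2R libraries were under 1 FPKM and all P2R+SA libraries at or over it, and in 26 genes the reverse held. These 58 genes entered the test through 1 group alone and so had to differ. Of them 14 and 18 passed the adjusted threshold, and 1801 calls remain among the other tested genes. The changes were small in absolute terms: the 32 genes went from a median of 0.76 to 1.41 FPKM and the 26 from 1.85 to 0.57 FPKM, and just 3 and 1 of them had a mean of at least 5 FPKM on the expressed side, the highest at 10.1 and 9.68 FPKM.

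In terms of the transcript pool, the rises added 73469 FPKM to the sum over genes, which is 7.87% of the mean summed FPKM in P2R, and the differences of the falls came to -66624 FPKM, or -7.14%. A few abundant genes carried much of this. The 10 largest gains held 38.9% of the gain summed over called rises, and the 20 largest held 53.0%. The 10 largest losses held 26.6% of the loss summed over called falls, and the 20 largest held 35.3%. Coding sequences under 600 bp were found in 10 of the 20 largest gains and 11 of the 20 largest losses. Such short genes were 11.5% of all tested genes but 51.1% of the 139 genes at 1000 FPKM or more, so abundant genes in general were short here.

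The IDs described next have the 2 largest gains and 2 largest losses in mean FPKM among called genes whose groups do not overlap. That P2R and P2R+SA lie apart in them was thus fixed by the choice and is no further evidence. The largest gain in FPKM was in A00307, with a coding length of 483 bp. Its level was 8441, 7175 and 8209 FPKM in the P2R libraries and 11411, 12900 and 19029 FPKM in the P2R+SA libraries. All P2R+SA libraries were above all P2R libraries, with replicate 3 far above the other two. The mean went from 7942 ± 674 to 14450 ± 4037 FPKM (SD, n = 3), a ratio of 1.82 (limma log2 change 0.83 with SE 0.25, adjusted p = 0.0355). It was already the fifth most abundant gene with the dye alone and became the second. The call was lost without any 1 of the P2R libraries (limma adjusted p = 0.0767, 0.108 and 0.0798), without P2R+SA replicate 2 or 3 (0.0642 and 0.137), and without CK replicate 1 (0.0528). It was also lost with no filter on low values (0.0646) and with a replicate block (0.0588), within a range of 0.00576 to 0.137 over all alternatives. Without the dye, SA was at 10698, 6263 and 8781 FPKM and CK at 5877, 7003 and 4215 FPKM. These groups overlapped, and the difference did not pass (limma log2 change 0.59 with SE 0.25, adjusted p = 0.127), except when SA replicate 2 was left out (0.0422).

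A02410, of 531 bp, had the next largest gain. It was at 1616, 2133 and 1561 FPKM in P2R and at 3857, 7794 and 8790 FPKM in P2R+SA. The groups were far apart, and P2R+SA replicate 1 was the lowest of its group. Its mean rose 3.85-fold, from 1770 ± 316 to 6814 ± 2609 FPKM (SD, n = 3) (limma log2 change 1.87 with SE 0.28, adjusted p = 0.000954), and it moved from rank 48 to rank 10 by abundance. The log2 fold change stayed between 1.65 and 2.24 under all 21 alternatives, each with a limma adjusted p of at most 0.00634. Sinapic acid without the dye went with a rise of similar size, from 1299, 1268 and 1955 FPKM in CK to 4467, 4982 and 3756 FPKM in SA (limma log2 change 1.57 with SE 0.28, adjusted p = 0.0034).

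The largest loss in FPKM was in A00619, of 384 bp. It was the second most abundant gene of P2R mycelium, at 13348, 11553 and 13442 FPKM, and dropped to 5217, 4098 and 4190 FPKM in P2R+SA, where it ranked 18th. The groups were clearly apart, with little spread inside either. The mean went from 12780 ± 1065 to 4502 ± 621 FPKM (SD, n = 3), or 2.84-fold lower (limma log2 change -1.51 with SE 0.15, adjusted p = 0.00011). Its share of summed FPKM went from 1.37% to 0.476%, and this gene alone held 12.4% of the loss summed over called falls. CK libraries had still more of it, at 24102, 21987 and 19347 FPKM, and SA libraries had 10400, 8056 and 8838 FPKM. All 4 groups were thus separate for A00619, with the order CK, P2R, SA, P2R+SA from high to low. Its change in SA vs CK was -1.26 log2 units (SE 0.15, limma adjusted p = 0.000273), and its change in P2R vs CK, which shares the P2R libraries, was -0.77 (SE 0.15, limma adjusted p = 0.00478).

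A06250, of 318 bp, had the next largest loss. Its level was 2791, 2230 and 2653 FPKM in P2R and 866, 454 and 376 FPKM in P2R+SA, with P2R+SA replicate 1 nearest to the dye cultures. The mean dropped 4.53-fold, from 2558 ± 292 to 565 ± 264 FPKM (SD, n = 3) (limma log2 change -2.27 with SE 0.27, adjusted p = 0.000274), with a move from rank 32 to rank 288. Without the dye the loss was from 3647, 2757 and 2746 FPKM in CK to 200, 318 and 286 FPKM in SA (limma log2 change -3.52 with SE 0.27, adjusted p = 1.1e-05). All SA libraries lay below all P2R+SA libraries. The test of whether the loss differed with and without the dye did not pass for A06250 (log2 interaction 1.25, SE 0.39, limma adjusted p = 0.156), nor for A00307, A02410 and A00619 (0.784, 0.763 and 0.637).

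**Figure D2:**
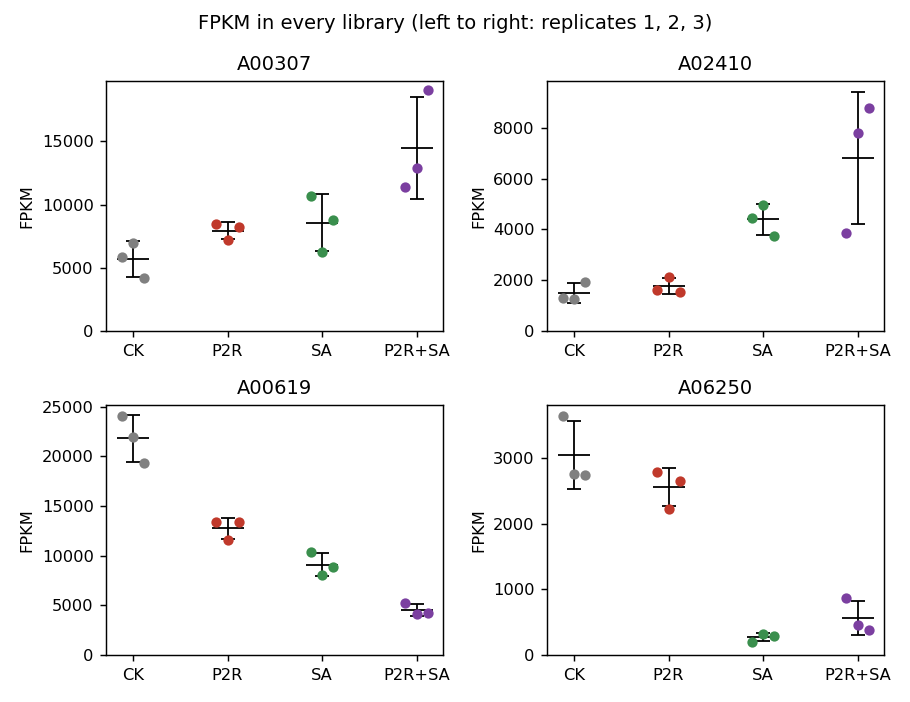
FPKM of the 4 IDs in each of the 12 libraries (points, replicates 1 to 3 from left to right), with the mean (bar) and SD (whiskers) of each group of 3, on linear axes from 0. P2R+SA lies above P2R for A00307 and A02410 and below it for A00619 and A06250. The IDs were picked among called genes whose groups do not overlap, so this separation was fixed by the choice.

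A larger share of the transcript pool lay in the most abundant genes in all 3 libraries with sinapic acid added, in a design too small for the test to pass. The 100 most abundant genes of each library held 31.9%, 30.5% and 32.1% of summed FPKM in P2R and 35.1%, 34.7% and 35.8% in P2R+SA, with no overlap. The means were 31.5 ± 0.878% and 35.2 ± 0.532% (SD, n = 3; exact two-sided permutation test p = 0.1, the smallest that 3 against 3 libraries can give). For the 10 most abundant genes the shares were 12%, 10.9% and 12.2% in P2R and 14.1%, 13.8% and 15.3% in P2R+SA (exact permutation test p = 0.1). CK libraries held 32.6% to 33.6% in their top 100 and SA libraries 32.8% to 35.7%, and the SA range overlapped both CK and P2R+SA. By group means, 82 genes were in the top 100 of both P2R and P2R+SA. Of the 18 that entered, 10 were called higher, and 1 came from as far down as rank 471. Of the 18 that left, 6 were called lower. Genes that entered or left were picked by the difference between the same groups, which favors calls, so these counts are no test. Of the whole P2R top 100, 15 were called higher and 12 lower, against 8.78% and 11.6% of all tested genes.

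**Figure D3:**
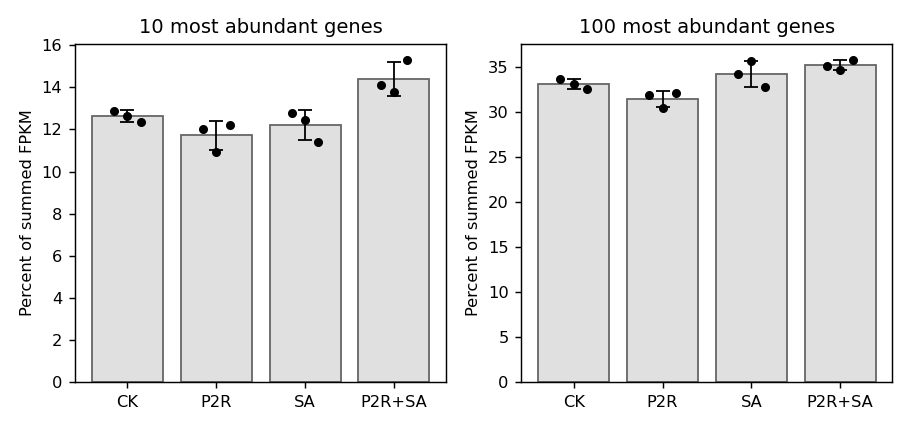
Percent of summed FPKM held by the 10 (left) and 100 (right) most abundant genes of each library (points), with the group mean (bars, from 0) and SD (whiskers, n = 3). The P2R+SA libraries lie between 34.7% and 35.8% for 100 genes, above all P2R libraries.

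In the values as deposited, P2R+SA replicate 1 carried less of the falls than its fellow libraries. To see how much, genes were called without that library, and its place was measured on a scale where 0 is the mean of P2R and 1 the mean of the other 2 P2R+SA libraries. In the 793 genes called higher without it, its median place was 0.85, with quartiles of 0.50 and 1.15. In the 1645 genes called lower without it, the median was only 0.43, with quartiles of 0.11 and 0.74, and 931 of these genes (56.6%) lay nearer to P2R. The same measure gave medians of 0.88 for rises and 1 for falls in replicate 2, and 0.98 and 1.15 in replicate 3. Those 2 libraries were placed on other lists of genes, called with replicate 1 included, and against a mean that contains it. Replicate 1 thus lay short of the other libraries of its group for falls, and its gap between rises and falls depended on scaling. Its medians were 0.67 for rises and 0.62 for falls with median-of-ratios scaling, and 0.74 and 0.55 with quantile normalization. Under these scalings 38.7% and 44.8% of the falls lay nearer to P2R, no longer most of them. Among rises the shares were 37.2% and 31.1%, against 25% as deposited. What set this library apart was not tested.

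**Figure D4:**
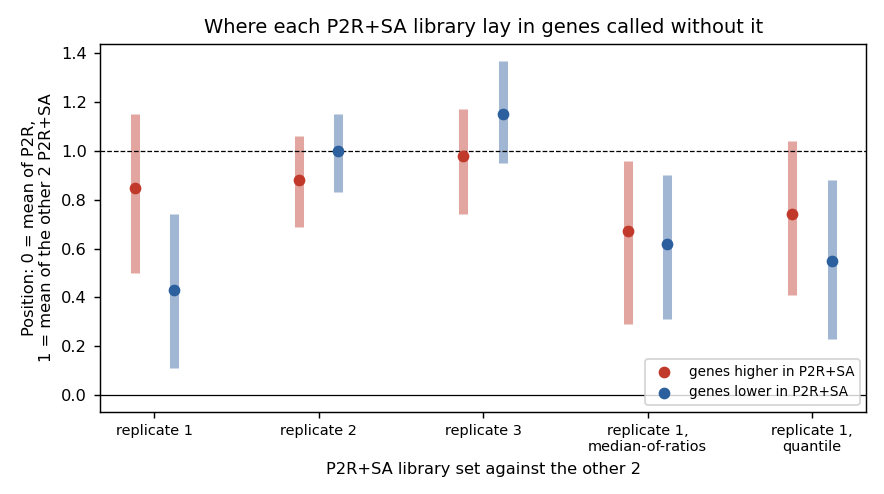
Place of each P2R+SA library between the P2R mean (0) and the mean of the other 2 P2R+SA libraries (1, dashed), as median (points) and quartiles (bars) over genes called without that library; the right-hand entries repeat replicate 1 after median-of-ratios scaling and quantile normalization. As deposited, replicate 1 lies at 0.43 for genes that fell, while replicates 2 and 3 lie at 1 and 1.15.

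The same genes were read with sinapic acid in the absence of the dye, a comparison (SA vs CK) that shares no library with this one. All 790 rises had a median log2 fold change of 0.38 in SA vs CK, and 37.3% of them were called higher there and 0.633% lower. All 1043 falls had a median of -0.47, with 47.5% called lower and 1.82% higher, so 490 rises and 529 falls did not pass in SA vs CK. Values were larger in the genes with larger changes. The 193 genes that rose by at least 1 log2 unit had a median log2 fold change of 0.96 in SA vs CK, and the 376 that fell by as much had a median of -1.09, against -0.035 over all tested genes. In levels, the 193 genes had medians of 20.9 to 21.4 FPKM in CK and 41.2 to 48.7 FPKM in SA. The 376 genes had medians of 37.6 to 39.3 FPKM in CK and 12.3 to 17.5 FPKM in SA. Neither pair of ranges overlapped, although the genes had been picked on other libraries. SA vs CK itself called 1510 genes (16.8%), 627 higher (6.97%) and 883 lower (9.81%). Of the 193, 124 (64.2%) were among the genes higher in SA, which is 19.8% of that list, and 1 was lower. Of the 376, 236 (62.8%) were lower in SA, 26.7% of that list, and 5 were higher. Both comparisons took each gene's spread from the same 12 libraries, and the header number differs in the same way in both. The SA vs CK total was 796, 844 and 880 without CK replicates 1, 2 and 3.

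The 19 strongest rises are shown beside their values without the dye. Their medians were 4.55 to 5.74 FPKM in CK, 8.36 to 11.9 FPKM in P2R, 51.2, 20.7 and 21.2 FPKM in SA, and 50.3 to 55.3 FPKM in P2R+SA, so 2 of 3 SA libraries lay under the P2R+SA range and SA replicate 1 inside it. The 64 strongest falls had medians of 62.4 to 65.6 FPKM in CK and 12, 22.1 and 22.5 FPKM in SA, where P2R+SA had 9.26 to 14.9 FPKM. These lists were picked for a strong change in dye cultures, which favors a larger value there. The difference itself was tested by the interaction over all genes, which passed in 103 of 8999 (1.14%). Of these, 64 had a lower log2 fold change with the dye than without it, with medians of -0.87 with it and 0.60 without it. The other 39 had a higher one with the dye, with medians of 0.12 with it and -1.15 without it. The medians with and without the dye had opposite signs in both sets, but in the 39 genes the median with the dye was small. Picking genes for a difference between these changes favors such signs. The interaction contains the compared libraries, so these medians are no independent evidence. Its count was 47, 39 and 34 without CK replicates 1, 2 and 3, 39, 45 and 48 without P2R replicates 1, 2 and 3, and 170 and 326 without SA replicates 1 and 2.

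**Figure D5:**
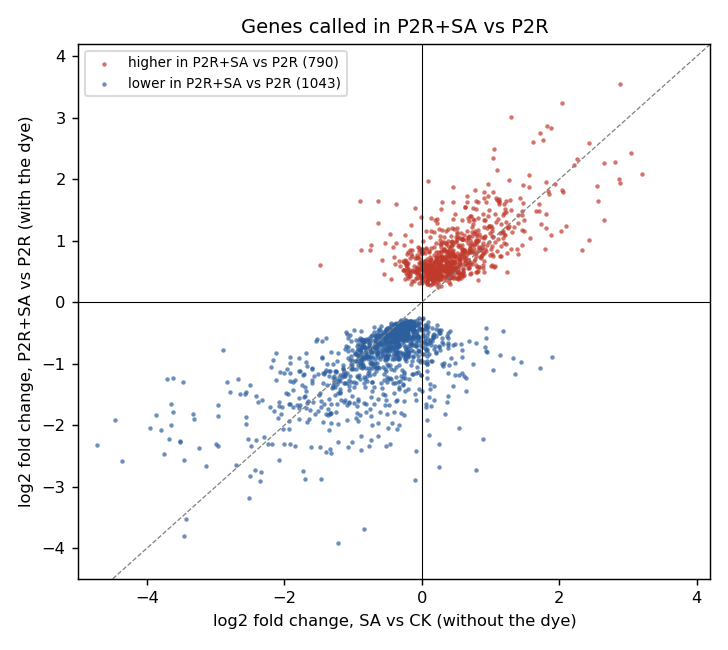
Log2 fold change with sinapic acid in the absence of the dye (SA vs CK, x axis) and in its presence (P2R+SA vs P2R, y axis) for the 790 genes called higher and 1043 called lower in P2R+SA vs P2R; the dashed line marks equal change. Among them, 295 of the rises and 495 of the falls were also called in the same direction without the dye.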

How the data were processed

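RNA of mycelium was sequenced in 12 libraries, 3 in each of 4 groups named by the sample titles. The deposited values are FPKM, made by the authors before deposit. Per the submitters' processing notes, fastp, HISAT2, HTSeq and R 3.2.0 were used, with no role or order given. Neither build nor annotation nor strand setting is given in the sources used here, so genes sharing reads with copies or overlapping neighbors could not be checked. The series-wide table and the per-library files agree to within 4.9e-06 FPKM.

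Fragments, library totals and coding lengths were recovered from the ratios of FPKM values between libraries and genes. Whole fragments came out for 10276 of 10276 genes (tolerance 5e-06 fragments), and their sums matched the totals to within 22 fragments. In simulated tables, 99.98% of 10276 genes came back identical. Lengths were sought only in steps of 3 bases, a step set in advance. The totals that the summed fragments matched were derived with this step. The lengths are therefore called coding lengths.

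Genes with at least 1 FPKM in 3 of the 6 P2R and P2R+SA libraries were tested with limma 3.58.1 in R 4.3.3, on log2(FPKM + 1), with an intensity trend over all 12 libraries (8 residual degrees of freedom) and no block. Calls are at a two-sided Benjamini-Hochberg adjusted p under 0.05 over 8999 genes. This scale understates fold changes of low genes. The test was run on simulated fragments of 8999 genes, some changed in P2R+SA alone. It found 19.7% of 61 changes sized 0.5 log2 units, 84.1% of 69 sized 1 and 100% of 70 sized 2, and 10 of its 150 calls were unchanged genes. Far fewer genes were changed there than the 1833 called in the data. The adjusted threshold depends on that number, so these shares need not hold for the data. The named IDs are the 2 largest rises and 2 largest falls in mean FPKM among called genes whose groups do not overlap. Members and lists were chosen with earlier results of these data known. The replicate position and its settings, and the settings for level classes, were chosen after seeing the data. No replicate pair agreed within sampling noise. Alternatives were another pseudocount, 2 other filters, 2 scalings, a replicate block, array weights, limma-voom on fragments, the compared libraries alone and each library left out.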

Additional observations from a re-analysis of the deposited data

Results flagged for a closer look

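The change with sinapic acid differed between cultures with and without the dye in 103 of 8999 genes by the interaction term (limma adjusted p under 0.05), with 1307 genes at an unadjusted p under 0.05. Every library with sinapic acid carries the header number 48 and every library without it 36, so a dye effect that differs between these numbers cannot be told apart from this difference.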

How the results depend on the processing

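Changes of at least 1 log2 unit in P2R+SA vs P2R stayed within 1.5 times their counts under all 21 alternatives, as did the direction and the call of A02410, A00619 and A06250. With array quality weights, which give libraries that stand apart less weight, 4677 genes changed (1722 higher, 2955 lower) and 501 had an interaction; the cause was not tested. The 6 compared libraries alone gave 1673 genes, limma-voom on recovered fragments 1849, and no filter on low values 1788. With 1 library left out the ranges were 1097 to 2438 genes changed, 463 to 950 higher, 634 to 1645 lower, 796 to 2175 in SA vs CK and 34 to 326 with an interaction. The difference in the top 100 share was 3.25 to 4.06 percentage points with 1 library left out and 3.50 to 3.76 otherwise. Same-numbered libraries of P2R and P2R+SA deviated together in 2 of 3 pairs (r over 0.1), with r from -0.29 to 0.56. So few pairs cannot decide whether the numbers pair the libraries. A replicate block gave 1640 genes changed and 63 with an interaction. Precision is limited by 3 libraries a group, and the header number 36 or 48 cannot be told apart from sinapic acid.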

Other observations

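Genes with consecutive ID numbers moved together somewhat more often than all genes did. Of 696 genes called higher whose next ID was also tested, 92 (13.2%) had a next ID called higher, against 8.78% of all tested genes. Of 928 called lower, 149 (16.1%) had a next ID called lower, against 11.6%. The next ID went the opposite way in 9.48% of the rises and 7% of the falls. The longest runs were 4 consecutive IDs that rose and 6 that fell, and 14 genes lay in the 3 runs of 4 or more falls. No source used here says what the ID numbers follow, and this pattern was seen after the data were examined and has no test.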
